A study of Mus musculus with 80 samples.

Results

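The 10 genes described here encode 7 Toll-like receptors (*Tlr1*, *Tlr2*, *Tlr3*, *Tlr4*, *Tlr7*, *Tlr9* and *Tlr13*), the coreceptors *Cd14* and *Ly96*, and the adaptor *Myd88*. They were taken by gene symbol, and all 10 were listed among the 15919 genes of the sort comparison and the 16000 genes of the cell preparation comparison. Toll-like receptors sense microbial molecules on innate immune cells, and microglia, the resident macrophages of the brain, carry many of them. Receptors at the cell surface bind bacterial lipids and lipopeptides, with CD14 and MD-2 (the product of *Ly96*) delivering lipopolysaccharide to TLR4, whereas TLR3, TLR7, TLR9 and TLR13 bind nucleic acids inside endosomes. MyD88 relays the signal of every receptor named here except TLR3, which uses the adaptor TRIF, and the pathway ends in NF-κB and interferon regulatory factors.

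All 80 libraries came from brains of Cx3cr1(Jung)-cre/Ert2+;NuTRAP+ mice given tamoxifen, 100 mg/kg body weight, at about 3 months of age. The Cre is driven by *Cx3cr1*, so border macrophages and other *Cx3cr1*+ cells can be tagged along with microglia, and no library from mice without Cre or tamoxifen was analysed here. Recombined cells carry eGFP on their ribosomes, and each preparation gave an Input library, from RNA before pull-down, and a TRAP library (translating ribosome affinity purification), from RNA pulled down with an anti-GFP antibody. The sort comparison held homogenate of hemisected brain made directly (Tissue, n = 4), an unsorted suspension after enzymatic and mechanical dissociation (Cell, n = 4), and cells sorted by CD11b magnetic beads (autoMACS, n = 4), by beads and then cartridge cytometry (autoMACS to Tyto, n = 3), by cartridge cytometry (Tyto, n = 5) or by droplet cytometry (FACSAria, n = 4). The cell preparation comparison held Tissue, Cell (-) Inhibitors, Cell (+) Inhibitors and Dounce, each with n = 4. The inhibitors were actinomycin D, triptolide and anisomycin, present only during the enzymatic step, and Dounce was a mechanical dissociation at 4 °C without enzymes.

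Tissue and Cell of the sort comparison shared their 4 mice, as did the suspensions with and without inhibitors, and some mice gave more than 1 sort. The sorted cells came from other mice than Tissue and Cell. In the cell preparation comparison, Tissue, the suspensions and Dounce came from different mice. In these contrasts effects of the preparation and of the mice cannot be told apart. The Tissue libraries of both comparisons carried the same animal numbers, so the contrasts with Tissue in the 2 comparisons are not independent of each other. Libraries of the sort comparison held 7.13 to 20.2 M (mega) counts. Those of the cell preparation comparison held 5.11 to 14.7 M, apart from the Dounce-TRAP libraries, which held 2.47 to 4.72 M and therefore measured low genes least precisely. Levels are given as scaled CPM, meaning CPM after TMM scaling within a fraction, and a gene was called at an adjusted p under 0.1 and a fold change above 2. Overlap between groups was read for the genes described here only. Its share over all genes was not computed, so separation of groups describes the libraries and is not weighed against other genes.

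In mm10 coordinates, as the deposited tables give them, *Ly96* lay at chr1:16688456-16709605 on the plus strand, *Tlr2* at chr3:83836272-83841608 on the minus strand and *Tlr4* at chr4:66827811-66842796 on the plus strand. *Tlr1* lay at chr5:64924680-64932699, *Tlr3* at chr8:45395665-45410539, *Myd88* at chr9:119335988-119340040 and *Cd14* at chr18:36725067-36726654, all on the minus strand. *Tlr9* was at chr9:106222598-106226876 and *Tlr13* at chrX:106143275-106160493 on the plus strand, and *Tlr7* at chrX:167304931-167330528 on the minus strand. *Tlr7* and *Tlr13* are thus X-linked, and differences by sex were not examined here. *Tlr1* has a neighbouring paralog, *Tlr6*, that is highly similar in part of its sequence, and whether reads were shared between them was not tested.

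The defining markers of the tagged cells were measured in every group. The 14 core microglial markers, such as *Cx3cr1*, *P2ry12* and *Tmem119*, were all detected, and their summed median level was 339.7 scaled CPM in Tissue-Input and 6800 in Tissue-TRAP of the sort comparison. It was 8017 in Cell-Input, 42385 in Cell-TRAP, 44712 to 50971 over the 4 sorted Input groups and 50925 to 54802 over the 4 sorted TRAP groups, with *Csf1r* as the most abundant gene in Cell-Input and Cell-TRAP and no marker at 0 in any group. Summed neuronal markers (8 of 8 measured, none at 0, led by *Snap25*) went the other way in TRAP, from 5378 in Tissue to 144.7 in Cell, and summed astrocyte markers (8 of 8, none at 0, led by *Slc1a2*) from 4352 to 1798. Border macrophage markers (8 of 8, none at 0, led by *Mrc1*) were at 202.9 in Tissue-TRAP and 1026 in Cell-TRAP. Replicate 1 of Cell-TRAP stood at 2409, and the rest of its group at 935.6 to 1052. Endothelial markers (8 of 8, none at 0, led by *Cldn5* in Tissue and *Flt1* in Cell) went up with the microglial ones, from 168.4 to 916.4 in TRAP and from 69.08 to 1728 in Input. In Input the astrocyte sum also went from 3516 to 10100, led by *Slc1a2*, and the oligodendrocyte sum (8 of 8, none at 0) from 3770 to 13477. Sums of the blood cell lists rose there too. The neutrophil sum (8 of 8, none at 0, led by *Lcn2* in Tissue and *S100a9* in Cell) went from 1.47 to 34.8. The monocyte sum (5 of 6 measured, none at 0) went from 10.02 to 45.6. *Vcan* led it, with means of 7.26 and 24.2, and whether *Vcan* came from monocytes was not tested. In TRAP the monocyte sum went from 6.19 to 18.3, and the neutrophil sum (3 and 2 markers at 0) from 0.631 to 0.9. The part of these cells in the receptor values was not tested.

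Replicate 3 of autoMACS-Input stood apart, with 7.13 M counts and a core microglial sum of 25189 against 44020 to 48244 in the other 3 libraries of its group, and the calls that include it were repeated without it.

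Pull-down from whole tissue compares RNA on tagged ribosomes with RNA of all brain cells, so its ratio reads the share of tagged cells together with ribosome loading. Against Tissue-Input, 9 of 10 genes were higher in Tissue-TRAP of the sort comparison, where 9.20% of all genes tested were called higher, and the same count was 9 of 10 in the cell preparation comparison against 8.17% of all genes. In the former *Ly96* had few counts in Tissue-Input and passed the filter through other groups. The lowest count there over the settings tried was 7. In the latter *Tlr1*, *Tlr4*, *Tlr9* and *Ly96* had few counts in Tissue-Input and passed the filter through other groups, and *Tlr2* and *Tlr13* had as few as 9 and 7 counts there; with at least 10 counts required 3 of the 4 genes left were called. *Tlr3* was the gene not called in both, at 0.80 ± 0.10 (SE) and 0.84 ± 0.18 on the log2 scale, with adjusted p of 1.6e-08 and 4.18e-04 in edgeR's quasi-likelihood test with Benjamini-Hochberg adjustment. The sensor of double-stranded RNA, *Tlr3* stood at 9.32, 10.26, 7.88 and 9.18 CPM in Tissue-Input and at 15.7, 12.9, 17.5 and 17.5 in Tissue-TRAP, here scaled over both fractions together. The 4 TRAP libraries were all above the 4 Input libraries, by less than the 2-fold threshold. *Cd14*, the lipopolysaccharide coreceptor, stood on that joint scale at 2.49, 3.59, 1.44 and 1.48 in Tissue-Input and at 43.2, 47.5, 55.05 and 41.9 in Tissue-TRAP. Its 2 groups lay far apart, and its log2 ratio in the fit over both fractions was 4.38 ± 0.16 (n = 4 a group, adjusted p = 3.57e-26, edgeR, Benjamini-Hochberg). *Tlr7*, which senses single-stranded RNA, and *Tlr13*, which senses bacterial ribosomal RNA, followed at 4.27 and 4.26, and the adaptor *Myd88* had the smallest called value, 2.17 ± 0.08. For comparison, the median ratio was 3.78 over 268 other microglial genes and 0.03 over all genes. In bulk libraries such as these, fewer cells of a type and less RNA per cell cannot be told apart.

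The ratio of TRAP to Input was also taken in the dissociated preparations. In Cell, 9 of 10 genes were higher in TRAP than in Input of the sort comparison against 16.7% of all genes, and 9 of 10 in Cell (-) Inhibitors against 10.6% and in Cell (+) Inhibitors against 9.71%. *Tlr3* was again the exception, at 0.99, 0.71 and 0.62. With only the compared groups in the fit *Tlr3* was at 0.99 in Cell and was called in Cell (-) Inhibitors at 1.05 (adjusted p = 3.12e-04, edgeR, Benjamini-Hochberg). With the replicate block added, which pairs the TRAP and Input libraries of an animal, it was at 1.0003 (adjusted p = 4.72e-07) and 1.07 (adjusted p = 3.93e-06), called in both, so its call depends on the fit. In Dounce, all 10 genes were higher in TRAP, against 20.8% of all genes, and *Tlr3* was among them at 3.12 ± 0.18. *Ly96* had few counts in Dounce-Input and passed the filter through other groups. With at least 10 counts required, 4 genes were called in Dounce. In the sorted cells, none of the 10 passed the 2-fold threshold in edgeR, against 18.9% of all genes called in either direction (0.0758% higher), although 8 had an unadjusted p under 0.05. By adjusted p under 0.1 in edgeR the number was again 8. DESeq2 and limma also called 0. The 2993 genes called in all became 1382 with only the compared groups in the fit, 1362 with the replicate block added to that fit, and 224 when at least 10 counts were required. The ratios of the sorted cells ran from -0.11 for *Ly96* to 0.51 for *Tlr9*, and the 4 sorts entered with equal weight. Without replicate 3 of autoMACS-Input, *Ly96* was at -0.14 and *Tlr9* at 0.42, and none was called.

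Cell against Tissue compares the suspension with the undissociated brain, and it holds any response to dissociation together with the change in cell composition. All 10 genes were higher in Cell-TRAP than in Tissue-TRAP of the sort comparison, where 25.0% of all genes were called higher. For these genes no library of one group overlapped the other, and the share of all genes without overlap was not computed. The direction held under both whole-library scalings. Relative to the 268 microglial genes, however, *Ly96* and *Myd88* had the opposite sign, as given further on. The median over the 4 endosomal receptors was 3.66 on the log2 scale, over the 3 surface receptors 3.14, and over all genes tested -0.01. The core microglial markers had a median of 2.68 in the same contrast, and their part in the rise was not tested. In the cell preparation comparison the order of the roles was reversed, with medians of 3.04 for the endosomal and 3.22 for the surface receptors.

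Among the surface receptors, *Tlr4*, the lipopolysaccharide receptor, stood at 9.95, 9.87, 11.4 and 8.21 scaled CPM in Tissue-TRAP and at 137, 131, 133 and 116 in Cell-TRAP. The Cell libraries sat within a narrow band far above the Tissue libraries, and the difference was 3.71 ± 0.09 log2 units (adjusted p = 1.17e-21, edgeR, Benjamini-Hochberg). *Tlr2*, which pairs with TLR1 or TLR6 to bind bacterial lipopeptides, stood at 18.1, 12.7, 19.1 and 13.6 in Tissue-TRAP and at 151, 116, 143 and 136 in Cell-TRAP. *Tlr1* ranged from 3.32 to 4.52 and from 29.7 to 38. Both were higher in each Cell library than in any Tissue library, by 3.10 ± 0.14 and 3.14 ± 0.13. Of the coreceptors, *Cd14* reached 542, 491, 485 and 437 in Cell-TRAP from 40.3 to 52.4 in Tissue-TRAP, a difference of 3.44 ± 0.10. *Ly96* stood at 3.62, 3.97, 3.83 and 3.69 in Tissue-TRAP and at 9.92, 13.8, 11.5 and 12.4 in Cell-TRAP. *Ly96* thus had the smallest difference of the 10 genes, 1.65 ± 0.15, with no overlap between its groups.

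**Figure D1:**
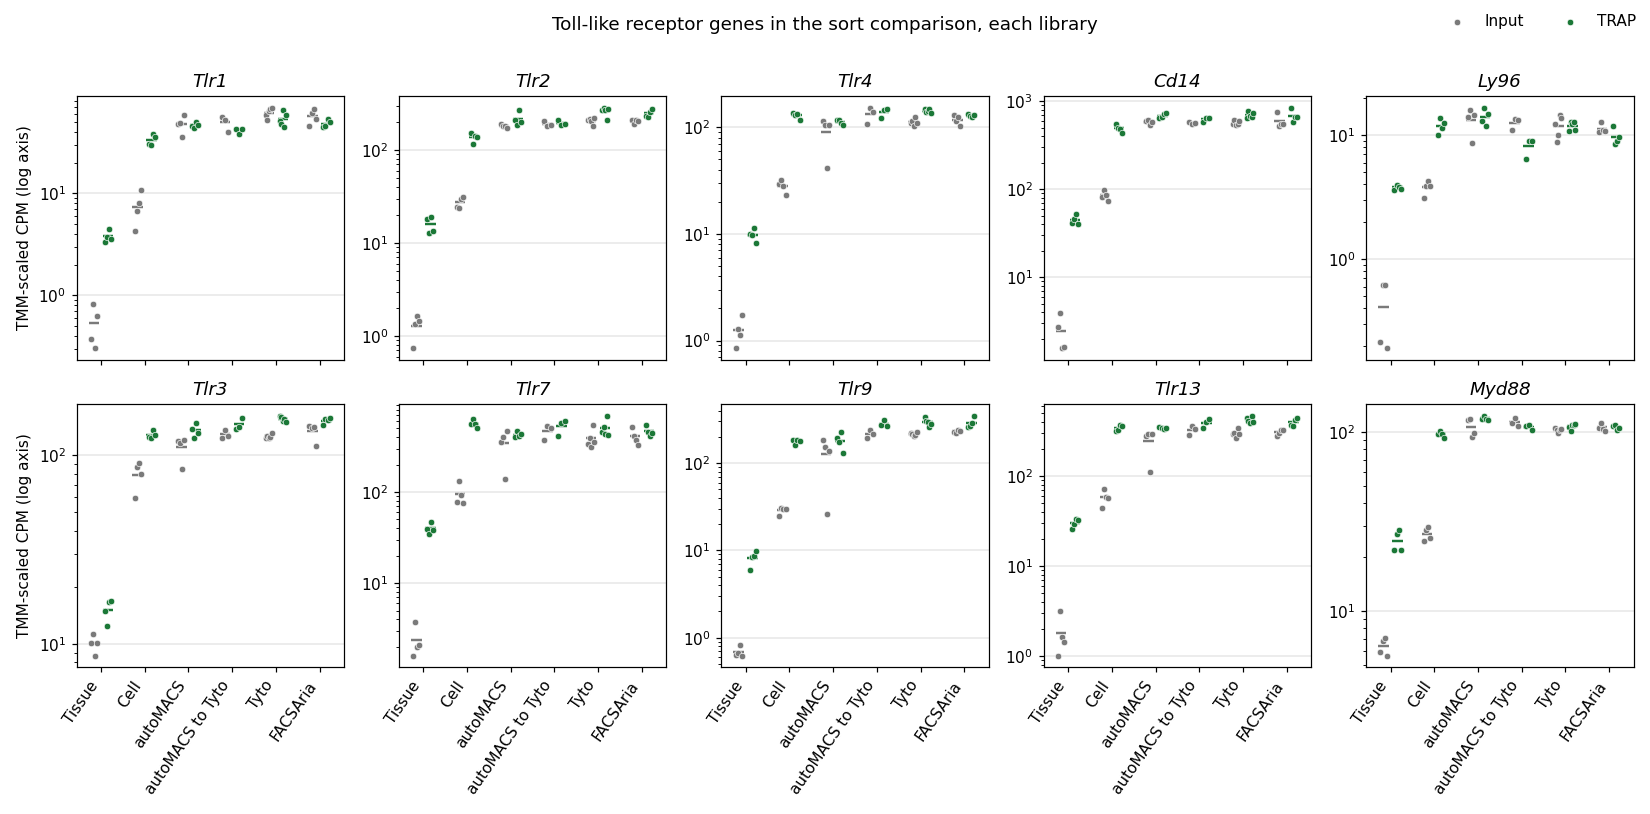
Levels of the 10 genes in each library of the sort comparison, as TMM-scaled CPM on a log axis, with Input in grey, TRAP in green and a bar at each group mean. Input and TRAP are scaled separately, so each fraction is read across its own groups: both are lowest in Tissue for each gene, and replicate 3 of autoMACS-Input sits low for *Tlr4*, *Tlr7*, *Tlr9* and *Tlr13*.

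The endosomal receptors included the gene with the largest difference. *Tlr9*, which senses unmethylated CpG DNA, stood at 6.02, 8.44, 8.64 and 9.77 scaled CPM in Tissue-TRAP and at 185, 161, 185 and 181 in Cell-TRAP. The lowest Cell library was far above the highest Tissue library, and the difference of 4.43 ± 0.16 log2 units, a 21.6-fold change, was the largest of the 10 genes (adjusted p = 8.65e-18, edgeR, Benjamini-Hochberg). *Tlr7* was at 38.8, 34.8, 47.2 and 38.8 in Tissue-TRAP and at 554, 628, 559 and 503 in Cell-TRAP, a difference of 3.81 ± 0.15. *Tlr13* ranged from 26.2 to 33.8 and from 318 to 372, a difference of 3.50 ± 0.09. *Tlr3* ranged from 12.5 to 16.9 and from 124 to 137, a difference of 3.07 ± 0.08. Each of these 4 receptors was higher in every Cell library than in any Tissue library. The adaptor *Myd88* was at 21.9, 27, 28.3 and 21.8 in Tissue-TRAP and at 98, 102, 97.9 and 92.2 in Cell-TRAP, a smaller difference than that of any receptor, 1.98 ± 0.07.

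The same contrast in Input gave larger differences for each gene but *Tlr3*. All 10 genes were higher in Cell-Input than in Tissue-Input of the sort comparison, against 28.5% of all genes, with log2 differences from 2.09 ± 0.10 for *Myd88* to 5.37 ± 0.42 for *Tlr9*; relative to the 268 microglial genes *Ly96*, *Tlr3* and *Myd88* had the opposite sign. *Tlr9* stood at 0.641, 0.671, 0.82 and 0.625 scaled CPM in Tissue-Input, from 12 to 16 counts a library, and at 24.8, 30.8, 29.9 and 29.9 in Cell-Input. *Ly96* had 4 to 12 counts and *Tlr1* 6 to 16 counts in a Tissue-Input library, so their Input differences rest on few counts. *Ly96* would not have passed the filter of more than 5 counts in Tissue-Input alone and entered through the other groups, so a difference was built into its selection. *Tlr3* had 170 to 220 counts in a Tissue-Input library. It was at 59.3, 86.8, 90.7 and 79.5 in Cell-Input against 8.71 to 11.4 in Tissue-Input, a clear separation of 2.97 ± 0.13.

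Whether the step from Tissue to Cell differed between TRAP and Input was tested as an interaction. It was smaller in TRAP for 5 of 10 genes, against 29.4% of all genes called lower, namely *Cd14* (-1.58 ± 0.20, adjusted p = 1.73e-08, edgeR, Benjamini-Hochberg), *Ly96* (-1.45), *Tlr7* (-1.42), *Tlr13* (-1.41) and *Tlr2* (-1.20). *Ly96* is limited here too by its 4 to 12 counts in Tissue-Input. With DESeq2's size factors in the same test, 7 were called, *Tlr4* at -1.004 and *Tlr9* at -1.18 joining them at the 2-fold line or beyond. *Myd88* (-0.03) and *Tlr3* (0.19) had interaction values near 0, and -0.36 and -0.14 with the size factors. The core microglial markers behaved in the same way, with 13 of 14 lower in the interaction and a median of -1.68, so a share of 5 of 10 is not particular to these genes.

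Since microglial genes in general were higher in Cell, the contrasts were also scaled to 268 microglial genes that exclude the receptors and their pathway. On that scale 3 of 10 genes were higher in Cell-TRAP than in Tissue-TRAP of the sort comparison, against 0.863% of all genes. These were *Tlr9* at 1.88 ± 0.14 (adjusted p = 3.86e-12, edgeR, Benjamini-Hochberg), *Tlr7* at 1.26 ± 0.14 and *Tlr4* at 1.16 ± 0.09. *Tlr13* (0.94), *Cd14* (0.88), *Tlr1* (0.59), *Tlr2* (0.55) and *Tlr3* (0.52) lay above the microglial genes by less than 2-fold, and *Ly96* (-0.90) and *Myd88* (-0.58) lay below them. *Tlr13* passed the threshold without Tissue-TRAP replicate 2 (1.01) or replicate 4 (1.003). Of the 268 genes themselves 34 were higher and 28 lower on this scale, so a gene that departs from the others by more than 2-fold was not rare among microglial genes.

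On the same scale the Input fraction gave a more mixed picture. In Cell-Input against Tissue-Input of the sort comparison 5 of 10 genes were called, against 91.9% of all genes in either direction (0.914% higher and 91.0% lower), a share set by the non-microglial genes. *Tlr9* (1.59), *Tlr7* (1.53), *Cd14* (1.34) and *Tlr13* (1.22) were higher and *Myd88* (-1.71) lower. With scaling to the 14 core markers, *Cd14* (0.78), *Tlr13* (0.67) and *Tlr7* (0.98) no longer passed the threshold, while *Ly96* (-1.14) and *Tlr3* (-1.42) were called lower. *Tlr3*, *Ly96* and *Myd88*, which lay below the microglial genes, are read from libraries in which non-microglial RNA was most of the total, and what other cells contributed was not tested.

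**Figure D2:**
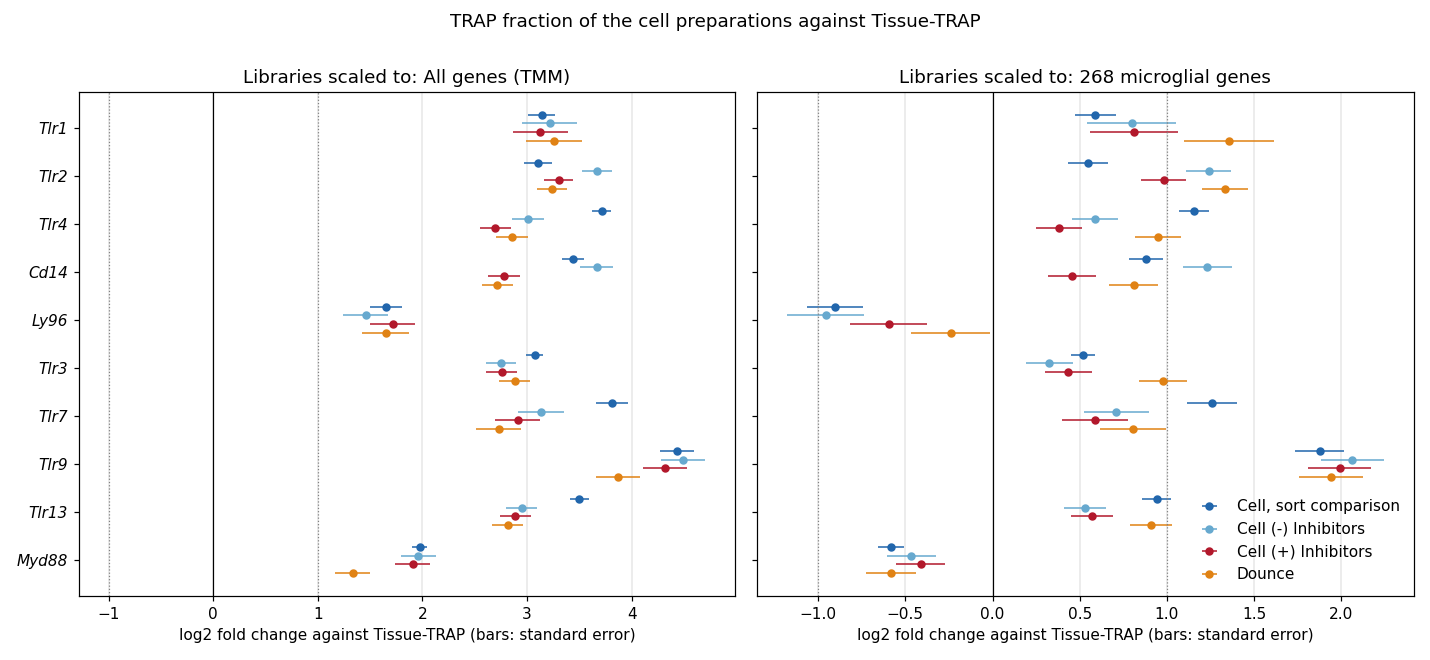
Log2 fold change of the 10 genes against Tissue-TRAP for the 4 unsorted cell preparations, with bars of 1 standard error; on the left the libraries are scaled over all genes by TMM and on the right to 268 microglial genes, and the dotted lines mark a 2-fold change. On the left each point is above 1; on the right *Ly96* and *Myd88* fall below 0, and *Tlr9* is the gene that lies near 2 in each preparation.

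Sorting asked for a comparison of the isolated cells with an unsorted suspension, and the 2 came from different mice. In TRAP, none of the 10 genes was called between the sorted cells and Cell, against 24.4% of all genes in either direction (0.816% higher and 23.5% lower). The 3643 genes called became 439 when at least 10 counts were required. This count of 0 was edgeR's count, DESeq2 and limma also gave 0, and 8 genes had an unadjusted p under 0.05. Those with an adjusted p under 0.1 in edgeR also numbered 8, so these fell short on fold change alone. *Tlr2* had the largest value, 0.74 ± 0.10 (adjusted p = 7.8e-07, edgeR, Benjamini-Hochberg), with a lowest level of 185, a median of 230 and a highest level of 281 scaled CPM over the 16 sorted libraries against 116 to 151 in Cell-TRAP. Each sorted library was above each Cell library, by less than 2-fold on average. *Cd14* ran from 583 through a median of 658 to 828 in the sorted cells, again without overlap with Cell-TRAP, at 0.46 ± 0.08, and *Tlr1* likewise at 0.49 ± 0.09. The other 7 genes overlapped. *Tlr9* ran from 130 through 269.9 to 347, at 0.53 ± 0.11, and *Tlr7* from 401 through 450.4 to 685, at -0.22 ± 0.10. Scaled to the microglial genes the count was also 0 in edgeR, DESeq2 and limma, against 26.2% of all genes, with values from -0.50 for *Tlr7* to 0.47 for *Tlr2*. On that scale 7 genes had an unadjusted p under 0.05, and 7 an adjusted p under 0.1, in edgeR.

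Against Tissue-TRAP, the sorted cells were higher for 10 of 10 genes, against 25.9% of all genes, from 1.50 ± 0.13 for *Ly96* to 4.96 ± 0.15 for *Tlr9*. Scaled to the microglial genes, 2 genes lay the other way. *Ly96* was at 4.61 to 11.9 in the sorted libraries against 17.1 to 21.3 in Tissue-TRAP, and *Myd88* at 68.3 to 88.8 against 108.5 to 144.7. Sorted and Tissue libraries came from different mice. The core microglial markers had a median of 2.96 in this contrast. In Input, 9 of 10 genes were higher in the sorted cells than in Cell, against 17.1% of all genes, from 1.69 ± 0.20 for *Ly96* to 2.84 for *Tlr1* and *Tlr2*. *Tlr3* was not called, at 0.66 ± 0.10. Its sorted Input libraries ran from 84.7 through 125.2 to 143 scaled CPM and overlapped the 59.3 to 90.7 of Cell-Input, through replicate 3 of autoMACS-Input. Without that library the count was still 9, *Ly96* was at 1.72, *Tlr1* at 2.87 and *Tlr2* at 2.84, and *Tlr9*, which it held at 26.1 against 140 to 241 in the other 15 sorted libraries, was at 2.82 instead of 2.74. Scaled to the microglial genes, 1 of 10 genes was lower in the sorted Input, *Tlr3* at -1.87 ± 0.07 (-1.86 without that library), where 89.6% of all genes were lower. Of the genes called higher above, *Ly96* (-0.84), *Tlr4* (-0.55), *Myd88* (-0.54), *Tlr7* (-0.45) and *Tlr13* (-0.19) had the opposite sign on that scale. *Tlr1* (0.325), *Tlr2* (0.30), *Cd14* (0.22) and *Tlr9* (0.19) did not, and all of these were under 2-fold. Astrocyte markers fell in Input over the same step, from a sum of 10100 scaled CPM in Cell to 205.2 to 325.6 over the sorts, with *Slc1a3* as the most abundant gene in the sorts and none at 0; their part in the *Tlr3* value was not tested.

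The 4 sorts were then compared with each other; their 16 libraries of a fraction came from 10 mice by the title numbers and were treated as independent. None was called in Input, against 7.40% of all genes (1165 genes, 280 with at least 10 counts required and 427 with only the compared groups), and none in TRAP, against 3.97% (594, 158 and 364), in edgeR or DESeq2, with 1 gene in Input and 7 in TRAP at an unadjusted p under 0.05. An adjusted p under 0.1 in edgeR was reached by 0 genes in Input and 6 in TRAP. limma called 1 gene in Input, *Tlr9* at 1.17, and 0 in TRAP. *Tlr9* in TRAP was at 193, 174, 227 and 130 scaled CPM in autoMACS, 272, 313 and 268 in autoMACS to Tyto, 260, 264, 289 and 347 in FACSAria and 340, 304, 293, 259 and 279 in Tyto. The autoMACS libraries were all below the libraries of the other 3 sorts, with a greatest log2 difference between sorts of 0.71 (adjusted p = 8.47e-04, edgeR, Benjamini-Hochberg), under 2-fold. *Ly96* in TRAP was at 6.45, 8.96 and 8.94 in autoMACS to Tyto and at 12.9, 16.4, 11.9 and 14.7 in autoMACS. These groups did not overlap, and the greatest difference between sorts was 0.79 (adjusted p = 1.98e-03). In Input, *Tlr9* had the greatest difference, 0.87, which was called (1.11) without autoMACS-Input replicate 1. Replicate 3 of the same group was the low one, at 26.1 against 186, 155 and 140, and without it the count was 0 and the difference 0.54.

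The cell preparation comparison asked whether inhibitors or cold mechanical dissociation alter the profile. Its Cell (-) Inhibitors libraries were higher than Tissue for 10 of 10 genes in TRAP, against 22.3% of all genes, and for 10 of 10 in Input, against 25.6%; relative to the microglial genes *Ly96* and *Myd88* had the opposite sign in both fractions and *Tlr3* in Input. The TRAP values ran from 1.46 ± 0.22 for *Ly96* to 4.49 ± 0.21 for *Tlr9*. *Tlr9* was at 11.9, 6.92, 8.41 and 10.5 scaled CPM in Tissue-TRAP and at 196, 230, 234 and 196 in Cell (-) Inhibitors-TRAP, without overlap. *Tlr2* was at 18.1, 13.1, 16.6 and 18.4 and at 190, 187, 208 and 258, a difference of 3.67 ± 0.14 (adjusted p = 1.25e-13, edgeR, Benjamini-Hochberg). In Tissue-Input the counts were low: *Tlr1* had 1 to 4 a library, *Tlr9* 3 to 6, *Ly96* 5 to 8 and *Tlr4* 5 to 11. These 4 genes passed the filter through the cell groups, so their Input calls follow in part from how they were selected, and no fold against these libraries is given for *Tlr1*.

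Relative to the microglial genes, 84.0% of all genes were called lower in Cell (-) Inhibitors-TRAP than in Tissue-TRAP, a share set by the non-microglial genes. On this scale 3 of 10 genes were higher, against 0.835% of all genes. They were *Tlr9* at 2.06 ± 0.18 (adjusted p = 3.38e-09, edgeR, Benjamini-Hochberg), *Tlr2* at 1.24 ± 0.13 and *Cd14* at 1.23 ± 0.14. *Tlr7* (0.71) and *Tlr4* (0.59), called on this scale in the sort comparison, were under 2-fold here, and the difference between the comparisons was not tested. *Ly96* was at -0.96 and was called lower without Tissue-TRAP replicate 1 (-1.09) or replicate 4 (-1.01) and with scaling to the 14 core markers (-1.06). In Input, 10 of 10 genes were called on this scale, among them the 4 with few counts in Tissue-Input, against 92.7% of all genes in either direction (0.825% higher and 91.8% lower), 7 higher and *Ly96* (-1.46), *Tlr3* (-1.23) and *Myd88* (-1.69) lower. *Tlr2* (1.02) and *Tlr7* (1.09) lost the call without Cell (-) Inhibitors-Input replicate 4 (0.95 and 0.84) or Tissue-Input replicate 4 (0.91 and 0.97), and with scaling to the 14 core markers *Tlr1* did, as did *Tlr2* (0.45), *Tlr4* (0.63), *Tlr7* (0.49) and *Tlr13* (0.75).

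Inhibitors of transcription and translation were added during the enzymatic step. None of the 10 passed both thresholds between Cell (+) and Cell (-) Inhibitors, against 0.645% of all genes in TRAP and 0.311% in Input, in edgeR, DESeq2 or limma, with 3 genes in TRAP and 1 in Input at an unadjusted p under 0.05. *Cd14* in TRAP was at 505, 522, 599 and 904 scaled CPM without inhibitors and at 356, 354, 329 and 331 with them. Each library with inhibitors was below each library without, and the value of -0.89 ± 0.14 (adjusted p = 1.03e-03, edgeR, Benjamini-Hochberg) was short of 2-fold. In Input, *Cd14* was at 97.2, 119, 96.6 and 185 without inhibitors and at 65.4, 55.4, 51.9 and 78.1 with them. Again the groups did not overlap, at -0.99 ± 0.20 (adjusted p = 0.026). This value lay at the 2-fold line: it was called without Cell (-) Inhibitors-Input replicate 1 (-1.09), 2 (-1.01) or 3 (-1.09) and without Cell (+) Inhibitors-Input replicate 1 (-1.01) or 4 (-1.11). With only the compared groups in the fit *Cd14* was at -0.87 in TRAP (adjusted p = 0.0254) and -0.99 in Input (adjusted p = 0.141). With the replicate block added it was at -0.83 (adjusted p = 0.101) and -0.96 (adjusted p = 9.27e-03), and the count of called genes stayed at 0 in both fractions.

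*Tlr2* and *Tlr4* were the other genes without overlap in TRAP, and the share of all genes without overlap was not computed. *Tlr2* was at 190, 187, 208 and 258 scaled CPM without inhibitors and at 152, 163, 158 and 181 with them, and *Tlr4* at 115, 122, 120 and 132 and at 90.9, 97.5, 96.5 and 110. All 4 libraries with inhibitors were below all 4 without, yet the values, -0.36 ± 0.13 and -0.31 ± 0.14, had adjusted p of 0.247 and 0.468 (edgeR, Benjamini-Hochberg). With only the compared groups in the fit their adjusted p were 0.0828 and 0.0486. With the replicate block added, which pairs the suspensions of a mouse, they were at -0.34 and -0.30 with adjusted p of 7.68e-04 and 1.67e-03, and *Tlr7* was at -0.21 with 0.0105, all under 2-fold. The remaining 7 genes overlapped in TRAP, with values from -0.23 for *Tlr7* to 0.26 for *Ly96*. *Tlr9* was among them, at 165, 173, 212 and 206 with inhibitors. The effect of inhibitors did not differ between TRAP and Input for any of the 10 genes in edgeR, against 0.145% of all genes, and 0 had an unadjusted p under 0.05. DESeq2 and limma gave 0 as well. Scaled to the microglial genes the count was also 0 in TRAP, against 0.591% of all genes, and in Input, against 0.317%, in edgeR, DESeq2 and limma, with 2 genes and 1 gene at an unadjusted p under 0.05 and *Cd14* at -0.78 and -0.99. In Input the count of 0 depended on the settings. *Cd14* was called with scaling to the 14 core markers (-1.15) and with at least 10 counts required, and fitting only the compared groups also gave a count of 1. The Input value of *Cd14* was called as well without Cell (-) Inhibitors-Input replicate 1 (-1.09), 2 (-1.10) or 3 (-1.02) and without Cell (+) Inhibitors-Input replicate 1 (-1.08) or 2 (-1.01).

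**Figure D3:**
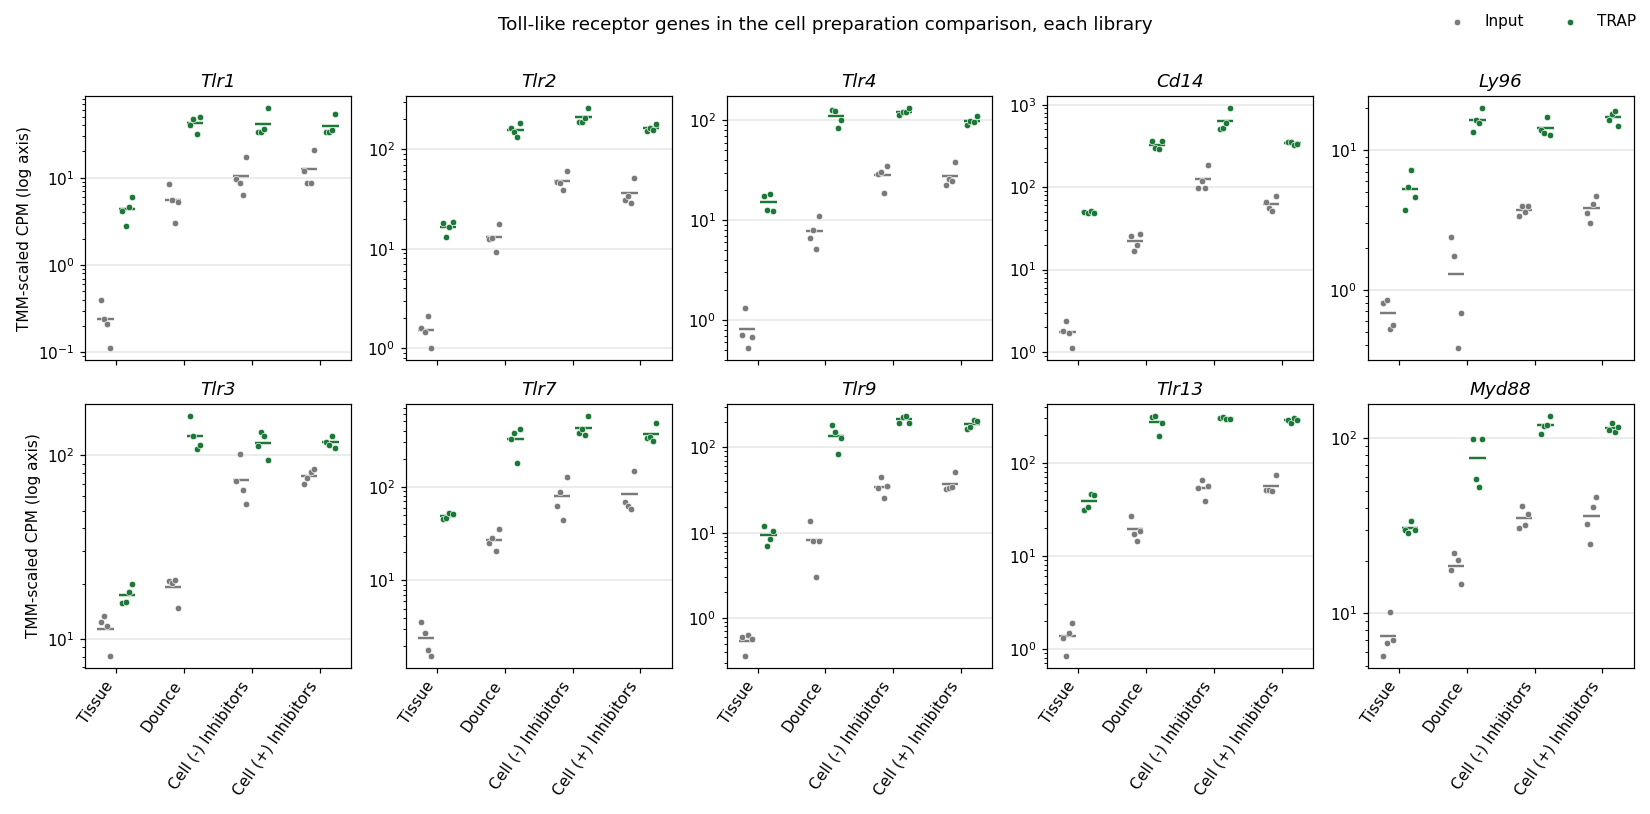
Levels of the 10 genes in each library of the cell preparation comparison, as TMM-scaled CPM on a log axis, with Input in grey, TRAP in green and a bar at each group mean. For *Cd14* the 4 TRAP libraries of Cell (+) Inhibitors, at 329 to 356, lie below the 4 of Cell (-) Inhibitors, at 505 to 904, and the Dounce-TRAP libraries lie at 292 to 362.

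With inhibitors the genes remained far above Tissue. Cell (+) Inhibitors was higher than Tissue for 10 of 10 genes in TRAP, against 21.6% of all genes, and for 10 of 10 in Input, against 25.5%; relative to the microglial genes *Ly96* and *Myd88* had the opposite sign in both fractions and *Tlr3* in Input. In TRAP, *Tlr9* was at 4.32 ± 0.21 and *Cd14* at 2.78 ± 0.15. Relative to the microglial genes 1 of 10 was higher in TRAP, against 0.523% of all genes, with 82.9% lower through the non-microglial genes. It was *Tlr9* at 1.99 ± 0.18 (adjusted p = 5.74e-09, edgeR, Benjamini-Hochberg). *Tlr2* (0.98) passed the threshold without Cell (+) Inhibitors-TRAP replicate 1 (1.01) or 3 (1.005) or Tissue-TRAP replicate 1 (1.04) or 4 (1.05), and *Tlr1* (0.81) without Tissue-TRAP replicate 4 (1.02). *Cd14*, called at 1.23 in the suspension without inhibitors, was at 0.46 ± 0.14 here. In Input, 9 of 10 genes were called on this scale, against 92.9% of all genes in either direction (0.705% higher and 92.2% lower), with *Tlr2* (0.60) as the exception. *Tlr7* (1.13) lost the call without Cell (+) Inhibitors-Input replicate 4 (0.89) or Tissue-Input replicate 4 (0.98), and with scaling to the 14 core markers *Tlr1*, *Cd14* (0.48), *Tlr4* (0.45), *Tlr7* (0.37) and *Tlr13* (0.67) did. The Input counts again include the 4 genes with few counts in Tissue-Input.

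Dounce dissociation in the cold again gave *Tlr9* the largest value in TRAP. All 10 genes were higher in Dounce-TRAP than in Tissue-TRAP, against 23.2% of all genes, from 1.34 ± 0.17 for *Myd88* to 3.87 ± 0.21 for *Tlr9*; relative to the microglial genes *Ly96* and *Myd88* had the opposite sign. *Tlr9* stood at 185, 152, 85 and 130 scaled CPM in Dounce-TRAP, more spread than in the suspensions and still far above Tissue-TRAP. *Tlr1* was at 40.5, 47.3, 32.1 and 49.4 in Dounce-TRAP against 4.13, 2.83, 4.66 and 6.02 in Tissue-TRAP, a difference of 3.26 ± 0.27. *Myd88* was at 98.4, 58.3, 52.6 and 98.9 against 29.9, 28.7, 33.7 and 29.9. Its Dounce libraries fell into a high and a low pair, and even the low pair was above Tissue. Relative to the microglial genes 3 of 10 were higher, against 2.05% of all genes, with 73.0% lower through the non-microglial genes. They were *Tlr9* at 1.94 ± 0.18 (adjusted p = 1.32e-08, edgeR, Benjamini-Hochberg), *Tlr1* at 1.36 ± 0.26 and *Tlr2* at 1.33 ± 0.13. *Tlr3* (0.98) joined without Dounce-TRAP replicate 4 (1.07) or Tissue-TRAP replicate 4 (1.06), and *Tlr4* (0.95) without Dounce-TRAP replicate 4 (1.03) or Tissue-TRAP replicate 1 (1.04). With scaling to the 14 core markers *Tlr9* was at 1.40 and still called, *Tlr1* (0.81) and *Tlr2* (0.78) were not, and *Myd88* was called lower at -1.14.

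Against Cell (-) Inhibitors-TRAP, none of the 10 was called in Dounce-TRAP in edgeR or DESeq2, against 28.7% of all genes in either direction, with 4 genes at an unadjusted p under 0.05, and limma called 1. *Cd14* was nearest the line, at 361, 295, 292 and 362 scaled CPM in Dounce-TRAP against 505 to 904 in the suspension. The groups did not overlap, at -0.95 ± 0.14 (adjusted p = 1.78e-05, edgeR, Benjamini-Hochberg), and the value passed 2-fold without Cell (-) Inhibitors-TRAP replicate 1 (-1.04) or 2 (-1.03) or Dounce-TRAP replicate 1 (-1.002) or 4 (-1.002). *Tlr9*, *Myd88* and *Tlr2*, at -0.63, -0.62 and -0.43, also had adjusted p under 0.1 and no overlap. *Tlr1* (0.04), *Ly96* (0.19) and *Tlr3* (0.13) lay near 0. Other cell markers (8 of 8 each, none at 0) also differed in TRAP: the neuronal sum was 1171 in Dounce and 92.78 in the suspension (led by *Slc17a7* and *Snap25*), the oligodendrocyte sum 1688 and 738.1, and the endothelial sum 66.8 and 853.7 (led by *Pecam1* and *Flt1*). The monocyte sum (5 of 6 measured, none at 0) was 95.4 and 13.5, and the neutrophil sum (8 of 8, none at 0) 14.3 and 0.831. The part of all these cells in the receptor values was not tested.

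In Input the Dounce preparation differed more. Dounce-Input was higher than Tissue-Input for 9 of 10 genes, against 28.7% of all genes, and *Tlr3* was the exception at 0.76 ± 0.19 (3 of the 4 genes left with at least 10 counts, since *Tlr1*, *Tlr4*, *Tlr9* and *Ly96* passed the filter through other groups and *Tlr2* and *Tlr13* had as few as 9 and 7 counts in Tissue-Input); relative to the microglial genes *Ly96*, *Tlr3* and *Myd88* had the opposite sign. *Ly96* (1.01 ± 0.46) lost its call with DESeq2's size factors (0.95), in DESeq2 (0.98) and limma (0.59), at an adjusted p under 0.05, and without Dounce-Input replicate 1 (0.57) or 2 (0.86) or Tissue-Input replicate 3 (0.91) or 4 (0.94), and it rested on 2 to 23 counts a Dounce library. Against Cell (-) Inhibitors-Input, 8 of 10 genes were lower in Dounce-Input, against 28.0% of all genes, led by *Cd14* at -2.49 ± 0.21, with 25.3, 16.7, 19.9 and 27.2 scaled CPM against 96.6 to 185 (adjusted p = 3.47e-09, edgeR, Benjamini-Hochberg). The 2 groups were well separated. *Myd88* (-0.91) was called without Dounce-Input replicate 2 (-1.01), and *Tlr1* (-0.88) without Cell (-) Inhibitors-Input replicate 3 (-1.05) or Dounce-Input replicate 1 (-1.16). The core microglial sum was 3264 in Dounce-Input and 9565 in Cell (-) Inhibitors-Input.

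Scaled to the microglial genes, 8 of 10 genes were called in Dounce-Input against Tissue-Input, against 80.01% of all genes in either direction (3.74% higher and 76.3% lower), *Tlr1*, *Tlr9*, *Tlr13*, *Cd14* and *Tlr7* higher and *Ly96*, *Tlr3* and *Myd88* lower. *Tlr1*, *Tlr9* and *Ly96* are limited by their few counts in Tissue-Input. *Tlr7* (1.12) lost the call without Tissue-Input replicate 4 (0.96). *Myd88* (-1.02) lost it without Dounce-Input replicate 1 (-0.87) or 4 (-0.83) or Tissue-Input replicate 3 (-0.80), with only the compared groups in the fit (-0.88), and with at least 10 counts required (-0.87). *Tlr4* (0.92) gained it without Dounce-Input replicate 1 (1.08) or 3 (1.04) or Tissue-Input replicate 2 (1.22). With the 14 core markers as the scale, *Cd14* (0.74), *Tlr13* (0.88), *Tlr7* (0.55) and *Tlr9* (0.96) were under 2-fold. Blood cell markers were high in Dounce-Input. The 8 neutrophil markers summed to 508.5 scaled CPM (298.9 to 1915, led by *S100a9*, none at 0) against 35.2 in Cell (-) Inhibitors-Input. Of the 6 monocyte markers 5 were measured, and they summed to 293.2 (196.5 to 360.3, led by *F10*, none at 0) against 31. In Dounce-TRAP these sums were 14.3 and 95.4. Neutrophils and monocytes also express several of these receptors, and their part in the Dounce values was not tested.

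Levels of different genes can be compared per length of exon, although coverage along the genes and RNA quality were not examined here. In Tissue-TRAP of the cell preparation comparison *Cd14* was first, at 28.8 ± 0.55 scaled CPM per kb (SD, n = 4). *Tlr7* (12.0 ± 0.76), *Myd88* (11.9 ± 0.83) and *Tlr13* (8.996 ± 1.75) followed, of which *Tlr7* and *Myd88* did not differ beyond their spread. *Tlr2* (5.49 ± 0.80) and *Ly96* (5.13 ± 1.46), and then *Tlr3* (3.34 ± 0.38), *Tlr4* (2.74 ± 0.55) and *Tlr9* (2.71 ± 0.63), formed groups whose neighbours overlapped, and *Tlr1* was last at 1.32 ± 0.39. In Cell (-) Inhibitors-TRAP the order was *Cd14* (365 ± 107), *Tlr7* (105 ± 23.6), *Tlr2* (69.9 ± 10.9), *Tlr13* (69.5 ± 1.68), *Tlr9* (61.4 ± 5.97), *Myd88* (46.2 ± 4.55), *Tlr3* (22.6 ± 3.46), *Tlr4* (22.03 ± 1.33), *Ly96* (14.1 ± 1.95) and *Tlr1* (12.4 ± 4.24). Neighbours again overlapped, such as *Tlr2*, *Tlr13* and *Tlr9*, so single ranks carry little weight.

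Other genes of the pathway, 42 in all, were read by role, and 40 were tested in TRAP. In Cell-TRAP against Tissue-TRAP of the sort comparison 29 were higher and 1 lower, and in Cell (-) Inhibitors-TRAP 28 and 1, beside the 25.0% and 22.3% of all genes called higher. The 4 other receptors tested were all higher in both, among them *Tlr6*, the partner of TLR2, at 3.66 and 3.14. Of the 9 accessory genes 7 were higher in both, including *Cd180* (3.39 and 3.64) and *Ly86* (1.79 and 1.69), which form a receptor complex related to TLR4 and MD-2, and *Unc93b1* (2.52 and 2.55), which carries the nucleic acid receptors to endosomes. Of the 5 other adaptors 4 were higher and 1 lower, with *Tirap*, the bridge from TLR2 and TLR4 to MyD88, at 2.55 and 1.62 and *Ticam1*, which encodes TRIF, at 2.08 and 1.95. Of the 16 kinases and ubiquitin ligases, 9 were higher in the sort comparison and 8 in the other, with *Irak4* at 2.58 and 2.47, *Irak2* at 2.30 and 1.90 and *Traf6* at 1.35 and 1.23. The inhibitory *Irak3* was at 2.24 and 2.44, while *Tollip*, another inhibitor, was not called (-0.33 and -0.39).

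The pathway genes were also read relative to the microglial genes. In Cell-TRAP of the sort comparison 2 of the 40 were higher and 19 lower on that scale, against 0.863% and 84.1% of all genes, and 12 of the 19 were among the 16 kinases and ligases; *Tlr6* (1.11) was higher and *Traf6* (-1.22) and *Tollip* (-2.90) were lower. None of the 40 genes in TRAP and none of 41 in Input was called between the suspensions in edgeR, against 0.645% and 0.311% of all genes. *Ticam1* was lower in Dounce-TRAP than in Cell (-) Inhibitors-TRAP (-1.10), together with 2 other genes, *Irf7* and *Sigirr*, and *Sarm1* was higher, where 7.99% of all genes were lower and 20.7% higher. These last 3 are named because so few were called, and thus after their values were seen. In the sorted cells against Cell-TRAP, *Cd180* was the 1 gene higher (1.01), and 2 were lower, against 0.816% and 23.5% of all genes. In Input, 26 of 41 were higher and 1 lower in Cell than in Tissue of the sort comparison, against 28.5% and 17.5% of all genes.

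Promoters were read for the genes whose values stood apart. *Cd14* was left out of the search. RefSeq entries of the build GRCm38.p6 matched 6 of the other genes, and the 250 bases before each start are used. *Tlr9*, called in each unsorted TRAP contrast with Tissue relative to microglial genes, and *Tlr2*, called in 2 of them, are printed 5′ to 3′ on the strand of the gene. Searched on both strands were PU.1 (GAGGAA, in 23.3% of 32851 promoters), AP-1 (TGANTCA, 6.75%), CRE (TGACGTCA, 1.55%), ISRE (2.98%) and NF-κB (3.9%), and capitals mark the matches. The *Tlr9* window is chr9:106222348-106222597 (plus strand), with a PU.1 match starting 112 bases and an AP-1 match 58 bases before the start. The *Tlr2* window is chr3:83841609-83841858 (minus strand), with 2 overlapping NF-κB matches starting 173 and 172 bases before the start. *Tlr13* held a PU.1 match, 1 of the 2 *Tlr1* promoters another, *Myd88* an ISRE match and *Tlr3* an NF-κB match. The RefSeq starts of *Tlr3*, *Myd88* and the *Tlr1* promoter with the match differ from the deposited gene bounds. A match is a description of letters and not of binding.
*Tlr9*: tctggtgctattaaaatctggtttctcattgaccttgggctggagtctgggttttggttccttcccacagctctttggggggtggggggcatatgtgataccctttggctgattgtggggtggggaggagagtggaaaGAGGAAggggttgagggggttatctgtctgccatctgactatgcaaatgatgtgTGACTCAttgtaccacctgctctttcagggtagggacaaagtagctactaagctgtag
*Tlr2*: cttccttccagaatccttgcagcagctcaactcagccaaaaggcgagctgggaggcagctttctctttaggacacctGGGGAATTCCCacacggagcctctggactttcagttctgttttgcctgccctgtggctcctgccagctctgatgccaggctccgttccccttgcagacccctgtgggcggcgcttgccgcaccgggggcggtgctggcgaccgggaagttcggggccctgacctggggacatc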

How the data were processed

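RNA-seq count tables of the sort comparison (48 libraries) and the cell preparation comparison (32) were used; an earlier table of 24 of the latter served as an alternative. The authors aligned reads to mm10 in Strand NGS, removed duplicates, counted with strand and normalized with DESeq2. The deposited raw columns are expected counts (33.4% and 21.2% whole within 1e-06), rounded here; the deposited normalized columns are log2 values set to the median of Tissue-Input and entered limma alone. Genes exceeding 5 counts throughout 1 group or more were tested with edgeR 4.0.16 (TMM, quasi-likelihood, R 4.3.3), all groups of a fraction in 1 fit, with Benjamini-Hochberg adjustment over all genes; DESeq2 1.42.0 and limma 3.58.1 were alternatives, and the fits were tested on simulated data. All 10 members, 11 pathway genes chosen by role and 3 from a short count are named; 0 columns were left unmapped, and depth was 2.47 to 20.2 M (mega) counts. Members and lists, the 268 microglial genes of the study's marker list included, were chosen with earlier results of these data known. Deviations of the same animals correlated over genes at 0.199 to 0.564 between suspensions in TRAP, -0.05 to 0.15 in Input, -0.091 to 0.18 between Cell and Tissue and 0.148 to 0.436 between TRAP and Input, so a fit with the replicate block was an alternative; animal numbers in the titles give the pairing. Replicates are separate mice within a group.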

Additional observations from a re-analysis of the deposited data

Results flagged for a closer look

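In 14 of 180 groups of a gene's levels 1 library lay far from the others of its group, and chance gives about 5%. In autoMACS-Input, replicate 3 was low for *Tlr13* (111.55 scaled CPM against 277.19 to 295.55 in the other 3), *Tlr3* (84.659 against 116.37 to 120.65) and *Tlr4* (41.265 against 104.81 to 113.78). In FACSAria-Input, *Cd14* was high in replicate 1 (743.2 against 520.89 to 545.63) and *Tlr3* low in replicate 4 (112.67 against 140.37 to 142.86).

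Cell (+) Inhibitors-Input replicate 4 was high for *Tlr7* (146.68 against 58.261 to 69.638), *Tlr9* (51.084 against 32.168 to 34.288) and *Tlr13* (73.866 against 49.248 to 51.079), and its core microglial sum was 13477 against 9307 to 9909 in the other 3. *Tlr1* was high in replicate 4 of both suspensions of that mouse in TRAP, at 62.578 without inhibitors (33.065 to 36.07 in the others) and 53.336 with them (33.129 to 34.888). *Tlr3* was low in Dounce-Input replicate 4 (14.689 against 20.077 to 20.902), and *Tlr2* in Tyto-TRAP replicate 4 (209.57 against 270.09 to 280.98). *Tlr9* was low in Cell-Input replicate 1 (24.799 against 29.893 to 30.823) and in Cell-TRAP replicate 2 (161.25 against 181.42 to 184.71) of the sort comparison.

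The rise from Tissue to Cell was smaller in TRAP than in Input for *Cd14* (-1.58), *Ly96* (-1.45), *Tlr7* (-1.42), *Tlr13* (-1.41) and *Tlr2* (-1.20) on the log2 scale, by the interaction test.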

How the results depend on the processing

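Over the settings tried, 680 of the counts of called receptor genes were within 1.5 times the main count and 39 were not; for the 209 log2 values called at first, 3479 alternatives kept the call, 41 lost it and 0 reversed, and values that gained a call are outside this count. Requiring at least 10 counts in every sample removed low genes, so fewer were tested: in the cell preparation comparison 4 were then called in Cell (-) Inhibitors against Tissue in Input, 4 in Cell (+) Inhibitors against Tissue, 3 in Dounce against Tissue and 3 in Dounce against Cell (-) Inhibitors, and for TRAP against Input 3 in Tissue, 3 in each suspension and 4 in Dounce. Relative to the microglial genes that filter gave 4, 4 and 3 against Tissue in Input and 1 for the inhibitors, *Cd14*. Scaling to the 14 core markers gave 5, 4 and 4 in those Input contrasts and 1 for the inhibitors, and fitting only the compared groups also gave 1. limma called 1 gene among the sorts in Input and 1 in Dounce against Cell (-) Inhibitors in TRAP; the cause was not tested.

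Leaving out 1 library gave 0 to 1 genes for the inhibitors in Input on both scales, 0 to 1 among the sorts in Input and 0 to 1 for Dounce against Cell (-) Inhibitors in TRAP. Relative to the microglial genes it gave 3 to 5 for Dounce against Tissue and 1 to 3 for Cell (+) Inhibitors against Tissue in TRAP. With the replicate block (paired libraries of a mouse, in a fit of the compared groups alone) 10 genes were called in Cell against Tissue in both fractions, 5 and 3 relative to the microglial genes, 0 for the inhibitors on both scales, and 5 and 0 in the interactions; for TRAP against Input 10 were called in Cell, Cell (-) Inhibitors and Dounce, 9 in both Tissue contrasts and Cell (+) Inhibitors, and 0 in the sorted cells. No call but that of *Tlr3* changed in it, and the change in Cell (-) Inhibitors came with the compared groups alone.

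Scaling by the size factors of DESeq2 moved the median of all genes by -0.33 in Cell against Tissue in TRAP, -0.35 in the sorted cells against Tissue in TRAP, -0.32 in the sort interaction, -0.21 in the sorted cells against Cell in Input, -0.41 for TRAP against Input in Cell, and 0.13, 0.12 and -0.23 in Cell (-) Inhibitors, Cell (+) Inhibitors and Dounce. The share of higher among called genes moved from 46.1% to 35.01%, from 16.3% to 5.23% and from 35.2% to 20.98% in the first, the interaction and TRAP against Input in Cell. The differences of 3 log2 units in TRAP exceed these shifts; *Ly96* at 1.65 and *Myd88* at 1.98 remained called.

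The count of all genes called moved by more than 1.5 times in 41 settings. With at least 10 counts it was 4565 and 4770 for Cell (-) Inhibitors against Tissue in Input and TRAP, from 7039 and 7819, 4617 and 4624 for Cell (+) Inhibitors, from 7183 and 7774, and 31 and 63 between the suspensions, from 49 and 95. That block fit gave 152 in that TRAP contrast. DESeq2 gave 1917 and 1148 among the sorts, from 1165 and 594, and an FDR of 0.05 gave 736 and 388. Depth limits the Tissue-Input values of *Tlr1*, *Tlr9* and *Ly96* and the Dounce-TRAP values.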
